A study of Mus musculus with 98 samples.

Results

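The comparison described here follows the hippocampus of tau transgenic mice over time while the mice carried a virus that raises Acss2. It rests on 10 of the 98 RNA-seq libraries of the series, chosen by their titles: 5 libraries from PS19 mice taken 1 month after injection of the Acss2 virus and 5 taken 6 months after it. The same time difference in PS19 mice injected with the empty virus, with 5 libraries at each time, is set beside it. PS19 mice carry a mutant human tau transgene under the mouse prion protein promoter and develop tau deposits, gliosis and neuron loss with age. All 4 groups carried this transgene, and no group without it enters these comparisons, so an age difference and a tau-related difference cannot be told apart.

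All mice were labelled male. They were injected behind the eye at 2.5 months of age with 1.5 times 10 to the power of 10 viral genomes of PhP.eB.upACSS2 or of PhP.eB-vector. PhP.eB is an adeno-associated virus capsid that crosses into the mouse brain from the blood. The promoter that drives Acss2 in the virus is not given in the sources used here. Mice were killed 30 min after recall of a fear context, which was tested at 24 h. The libraries at 1 month came from mice aged 3.5 months, and those at 6 months from mice aged 8.5 to 9 months.

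The tissue label differs inside the main comparison. The 5 upACSS2 libraries at 1 month are labelled whole hippocampus, whereas the 5 at 6 months, and all 10 vector libraries, are labelled dorsal hippocampus. Time and tissue label therefore cannot be told apart within the upACSS2 mice. Where the time differences of the virus groups are compared, virus and tissue label cannot be told apart either. The treatment entry of the labels also contradicts the titles. It names the vector for all 5 upACSS2 libraries at 1 month and upACSS2 for replicate 5 of the vector libraries at 1 month. Groups follow the titles and the matching column names, and the level of Acss2 in each library is given first. No label says outright that each library is a separate animal, so the p-values measure the spread between libraries.

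As background, ACSS2 makes acetyl-CoA from acetate in the nucleus and cytoplasm, and in neurons it sits on chromatin, where its acetyl-CoA can feed histone acetylation at memory genes. In tau transgenic mice, microglia leave their resting state as tau accumulates and take up a disease-associated program that depends on the receptor TREM2. Astrocytes raise GFAP, and synaptic genes decline as neurons are lost. In bulk tissue, fewer cells of a type and less RNA per cell cannot be told apart.

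The upACSS2 libraries held 6910945 to 16251723 counts at 1 month and 9368193 to 33259982 at 6 months. The vector libraries held 11267526 to 16659630 counts at 1 month and 12186306 to 22764555 at 6 months. Levels are given as CPM, each count scaled to a common TMM-adjusted library size. A list score is the mean log2 CPM over the tested genes of a list in 1 library. Markers of the thalamus, which borders the hippocampus, stood apart in 2 libraries. Their score was 5.96 in upACSS2 replicate 4 at 1 month, against 2.75 to 3.44 in the other 4 libraries of that group, and 5.56 in vector replicate 4 at 6 months, against 2.51 to 3.46. Neocortex markers stood apart in 2 vector libraries: their score was 5.79 in replicate 4 at 1 month, against 4.73 to 4.88 in the other 4, and 5.71 in replicate 3 at 6 months, against 4.61 to 4.67. That last library was also the lowest of its group for the dorsal hippocampus score (4.34, against 5.88 to 6.67) and for the CA2 and CA3 score (3.91, against 4.70 to 5.27). The list of 7 ventral hippocampus genes did not separate the tissue labels at 1 month: its score was 3.35 to 3.95 in the libraries labelled whole and 3.27 to 4.33 in those labelled dorsal. In the upACSS2 libraries at 6 months, labelled dorsal, the score was 3.40 to 4.78. The list's median log2 fold change between the times was 0.55 there, with 6 of 7 genes positive. The list therefore gives no check of the tissue label.

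Acss2, the virus's cargo (mm10, chromosome 2, 155517948 to 155585724, plus strand), was above the vector range in most upACSS2 libraries at both times. The 5 libraries at 1 month held 146, 1190, 318, 60.1 and 1465 CPM, in replicate order, and those at 6 months held 237, 100.5, 45.0, 55.4 and 111 CPM. The 10 vector libraries lay between 43.1 and 66.3 CPM. Replicate 4 at 1 month and replicates 3 and 4 at 6 months were therefore within the vector range, so in these 3 libraries Acss2 gives no check of the title. Vector replicate 5 at 1 month, which the treatment entry calls upACSS2, held 53.1 CPM.

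The mean level of Acss2 was 636 ± 646 CPM at 1 month and 110 ± 76.4 CPM at 6 months (SD, n = 5 each). The difference was -526 CPM, with an exact permutation p of 0.0794 (two-sided; the smallest p that 5 against 5 can give is 0.00794). In the edgeR quasi-likelihood fit, the log2 fold change was -2.53 ± 0.61 (SE), with a Benjamini-Hochberg adjusted p of 0.117. The groups overlapped, and the 2 highest libraries at 1 month set most of the difference in means. In the vector mice, Acss2 was 55.1 ± 6.33 CPM at 1 month and 48.2 ± 5.11 CPM at 6 months, a difference of -6.92 CPM with an exact permutation p of 0.0873. Several genes overlap Acss2, some on the other strand, and the strand setting of the counting is not given in the sources used here.

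Across 15850 tested genes, 7 genes changed between 1 and 6 months in the upACSS2 mice (edgeR quasi-likelihood test, adjusted p under 0.05), which is 0.0442% of the genes tested. Of these, 6 were higher at 6 months (0.0379%) and 1 was lower (0.00631%). The same fit called 1182 genes in the vector mice (7.46%), of which 727 were higher (4.59%) and 455 lower (2.87%). The median of the absolute log2 fold change over all genes was 0.14 in the upACSS2 mice and 0.18 in the vector mice. Of the 15850 genes, 265 were higher and 234 lower at 6 months without overlap between the times in the upACSS2 mice. In the vector mice 818 were higher and 738 lower without overlap. Lack of overlap, given below for single genes, is read beside these counts. At an unadjusted p under 0.05, 2166 genes differed in the upACSS2 mice, 1185 higher (7.48%) and 981 lower (6.19%), and 3984 in the vector mice, 2104 higher (13.3%) and 1880 lower (11.9%).

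The number of calls in the upACSS2 mice changed with the tool and with single libraries. DESeq2 called 175 genes, 88 higher and 87 lower, among them all 7. Leaving out 1 upACSS2 library at a time, edgeR called 0 genes in 7 of 10 fits. It called 1 gene, none of the 7, without replicate 1 at 1 month, 2 of the 7 without replicate 2 at 6 months, and 16 genes, the 7 among them, without replicate 4 at 6 months. Without the 2 libraries with thalamus markers, edgeR called 0 genes in the upACSS2 mice (DESeq2 was not run on that subset) and 371 in the vector mice. Without the 2 vector libraries with neocortex markers, it called 12 genes in the upACSS2 mice, the 7 among them, and 614 in the vector mice. Of the 37 genes named in the text that passed in the vector mice, 13 still passed without the first pair of libraries and 15 without the second. The 11 that passed both times were Atp1b2, Cspg4, Ctsa, Gm38190, Mvk, Npc1, Psmd13, Sdhb, Tmem176a, Usp16 and Zscan26.

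Among the 7 called genes the largest rise was that of Ccl9, a chemokine of myeloid cells (chromosome 11, 83572919 to 83578636, minus strand). It held 0.905, 0.787, 1.23, 0.912 and 1.17 CPM in the libraries at 1 month and 5.69, 3.58, 8.72, 2.35 and 3.40 CPM at 6 months. Every library at 6 months was above every library at 1 month. The log2 fold change was 2.21 ± 0.39 (edgeR, adjusted p = 0.0367). Vector mice held Ccl9 at 1.56 ± 0.63 CPM at 1 month and 2.76 ± 1.13 CPM at 6 months, a log2 fold change of 0.83 ± 0.37 that did not pass the threshold (adjusted p = 0.168).

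Rgs5 and Slco1a4, both genes of the brain's blood vessels, rose by similar factors. Rgs5, a regulator of G protein signaling that marks pericytes (chromosome 1, 169655501 to 169695813, plus strand), held 44.0, 36.9, 45.6, 32.8 and 41.6 CPM at 1 month and 67.7, 76.7, 76.1, 64.3 and 69.4 CPM at 6 months. Slco1a4, an organic anion transporter of brain endothelial cells (chromosome 6, 141805440 to 141856199, minus strand), held 11.9, 13.9, 12.9, 11.1 and 16.5 CPM at 1 month and 22.1, 24.4, 21.6, 21.7 and 26.8 CPM at 6 months. In neither gene did the times overlap. The log2 fold changes were 0.82 ± 0.14 for Rgs5 (edgeR, adjusted p = 0.0367) and 0.81 ± 0.14 for Slco1a4 (edgeR, adjusted p = 0.0338).

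The vector mice did not show this difference. Rgs5 was 46.7 ± 13.3 CPM at 1 month and 49.4 ± 6.2 CPM at 6 months there, and Slco1a4 was 14.3 ± 3.27 and 15.8 ± 1.62 CPM. The test of the difference between the time differences gave 0.74 ± 0.20 for Rgs5 and 0.67 ± 0.20 for Slco1a4, with unadjusted p of 0.00163 and 0.00265. Neither passed after adjustment over all genes (edgeR, adjusted p = 0.361 for both).

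Tmem176a and Usp16 rose in both virus groups. Tmem176a, a membrane protein gene of myeloid cells (chromosome 6, 48840919 to 48847071, plus strand), held 10.8 to 13.6 CPM in the upACSS2 libraries at 1 month and 17.9 to 27.8 CPM at 6 months. Its log2 fold change was 0.85 ± 0.14 in the upACSS2 mice and 0.70 ± 0.14 in the vector mice (edgeR, adjusted p = 0.0338 and 0.00664). Usp16, which removes ubiquitin from histone H2A (chromosome 16, 87454703 to 87483517, plus strand), held 21.7 to 26.4 CPM at 1 month and 30.1 to 35.1 CPM at 6 months. The log2 fold change was 0.43 ± 0.07, against 0.34 ± 0.07 in the vector mice (edgeR, adjusted p = 0.0338 and 0.00912). Tmem176a overlaps Tmem176b, and Usp16 overlaps Cct8, on the other strand, so their reads may not have been kept apart.

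Gm38190, the other gene called in both groups, is an RNA annotated within an intron of Tiprl, on the same strand (chromosome 1, 165230371 to 165235125). It lay below the expression level set for named genes and is named here after its values were seen. It held 0.274 to 0.603 CPM at 1 month and 0.946 to 1.85 CPM at 6 months in the upACSS2 mice, a log2 fold change of 1.59 ± 0.26, against 1.79 ± 0.24 in the vector mice (edgeR, adjusted p = 0.0338 and 0.000483). Reads of unspliced Tiprl would fall on it as well.

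The 1 gene that fell was Ncan, which encodes neurocan, a chondroitin sulfate proteoglycan of the brain's extracellular matrix and of perineuronal nets (chromosome 8, 70093085 to 70120873, minus strand). It held 188, 198.5, 246, 189 and 217 CPM at 1 month and 137, 142, 109, 159 and 141 CPM at 6 months. The highest library at 6 months was below the lowest at 1 month. The log2 fold change was -0.59 ± 0.10 (edgeR, adjusted p = 0.0338). The vector mice went from 190 ± 16.2 to 160 ± 16.2 CPM, with a log2 fold change of -0.25 ± 0.10 that did not pass (adjusted p = 0.115).

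**Figure D1:**
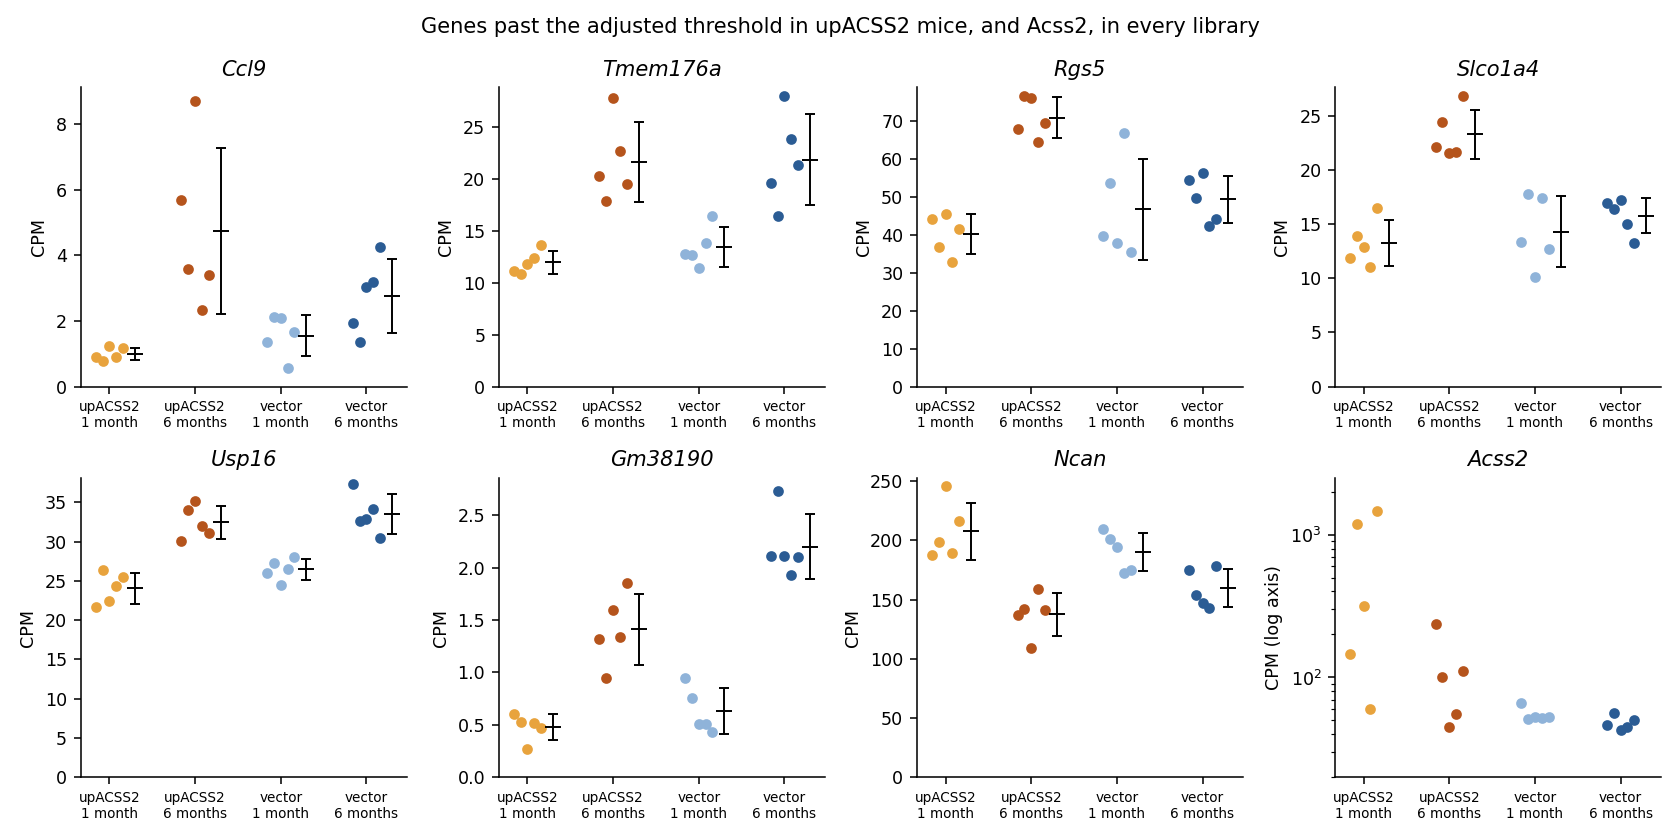
Level of the 7 genes past the threshold in the upACSS2 mice, and of Acss2, in every library (vertical axes in CPM, from 0, and on a log axis for Acss2; horizontal axis, virus and months after injection). Points are libraries, and bars beside them give the mean ± SD of 5 libraries (left out for Acss2, whose SD exceeds its mean at 1 month). Rgs5 and Slco1a4 separate the times in the upACSS2 mice and not in the vector mice, while Tmem176a, Usp16 and Gm38190 are higher at 6 months in both.

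Whether the time differences themselves differed between the virus groups was tested as the upACSS2 difference minus the vector difference. Because only the upACSS2 libraries at 1 month are labelled whole hippocampus, this test cannot tell virus and tissue label apart. No gene passed (edgeR, 0 of 15850 genes, 0%; lowest adjusted p 0.361), while 1956 genes had an unadjusted p under 0.05, 1066 with a positive difference (6.73%) and 890 with a negative one (5.62%). DESeq2 called 3 genes in this test. The larger number of calls in the vector mice is therefore not shown to be a difference between the groups at single genes. The spread between libraries, as edgeR's biological coefficient of variation, was 0.15 and 0.20 in the upACSS2 mice at 1 and 6 months and 0.20 and 0.21 in the vector mice.

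The 5 genes of sufficient level with the smallest unadjusted p in that test, none past the threshold, were Pcdhgb1, Zscan26, Psmd13, Itm2a and Tm4sf1. Pcdhgb1, a clustered protocadherin whose last exons are shared with its neighbours, so that reads may be split between them, went from 7.05 ± 1.00 to 4.83 ± 1.16 CPM in the upACSS2 mice and from 4.93 ± 0.64 to 7.76 ± 1.72 CPM in the vector mice. Zscan26, a zinc finger gene, was 55 ± 3.12 and 60.4 ± 2.84 CPM in the upACSS2 mice and rose from 51.4 ± 1.56 to 71.3 ± 1.07 CPM in the vector mice. Psmd13, a proteasome subunit, was 78.2 ± 3.26 and 82.9 ± 6.62 CPM in the upACSS2 mice and fell from 86.2 ± 5.20 to 70.3 ± 3.55 CPM in the vector mice. Itm2a was 23.7 ± 2.04 and 28.5 ± 2.62 CPM in the upACSS2 mice and fell from 25.6 ± 4.20 to 20.3 ± 1.41 CPM in the vector mice. Tm4sf1, a membrane protein of vascular cells, was 8.59 ± 1.49 and 14.3 ± 3.03 CPM against 12.2 ± 2.02 and 9.74 ± 2.57 CPM. All 5 had an adjusted p of 0.361 (edgeR).

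The time differences of the 2 virus groups share no library, so their likeness can be described over genes. Of the 1182 genes called in the vector mice, 972 (82.2%) had the same sign in the upACSS2 mice, whereas 58.2% of all tested genes did. The share was larger for genes called higher (642 of 727, 88.3%) than for those called lower (330 of 455, 72.5%). Genes called higher in the vector mice had a median log2 fold change of 0.50 there and 0.20 in the upACSS2 mice. Genes called lower had a median of -0.37 there and -0.07 in the upACSS2 mice. Both groups called 3 genes, in the same direction, which is 42.9% of the upACSS2 calls and 0.254% of the vector calls. Over all 15850 genes, Pearson's r between the fold changes was 0.40 and Spearman's rho 0.28, genes not being independent replicates. The vector medians come from genes chosen for passing in the vector mice, so they are a description.

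**Figure D2:**
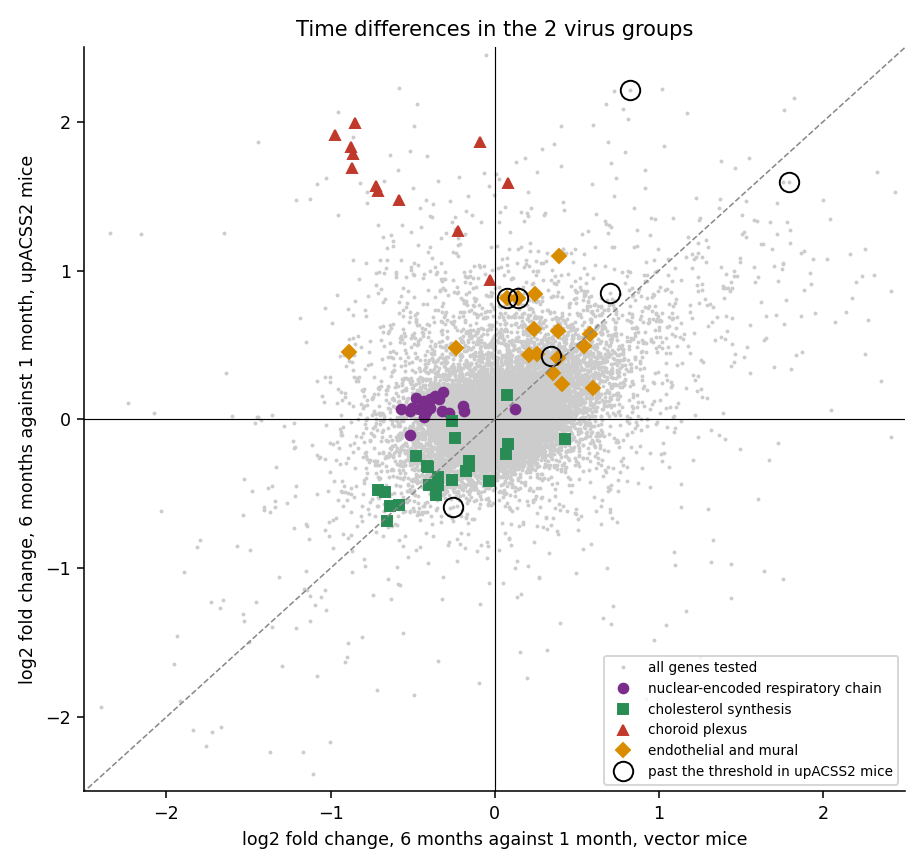
Log2 fold change at 6 months against 1 month in the vector mice (horizontal) and the upACSS2 mice (vertical); each grey point is 1 of 15850 tested genes, the dashed line marks equal values, and 43 genes lie outside the plotted range of 2.5 either way. Cholesterol synthesis genes lie near the dashed line, 19 of 20 respiratory chain genes lie left of the vertical axis, near 0 on the upACSS2 scale, and the 12 choroid plexus genes are above 0 on the upACSS2 scale, 11 of them below 0 on the vector scale. Open circles mark the 7 genes past the threshold in the upACSS2 mice.

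The gene lists described next are read by counts and medians beside the same over all genes, whose median log2 fold change was 0.02 in the upACSS2 mice and 0.01 in the vector mice.

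Genes of disease-associated microglia were mostly higher at 6 months in both virus groups, though no member passed the threshold in the upACSS2 mice. Of 20 members, 19 had a positive log2 fold change in the upACSS2 mice, with a median of 0.62, against 19 and 0.63 in the vector mice. The upACSS2 median was 0.31 without replicate 3 at 6 months, and the vector median was 0.37 without the 2 libraries with neocortex markers. An unadjusted p under 0.05 with a higher level was found for 6 of 20 in the upACSS2 mice (7.48% of all genes) and 9 of 20 in the vector mice (13.3% of all genes). Trem2, the receptor of this program, was 13.6, 19.4, 14.3, 13.2 and 24.6 CPM at 1 month and 20.3, 18.3, 53.9, 28.7 and 15.7 CPM at 6 months. The times overlapped, and replicate 3 at 6 months stood highest. Its log2 fold change was 0.68 ± 0.37 (edgeR, adjusted p = 0.427), and 0.88 ± 0.37 in the vector mice (adjusted p = 0.137). Tyrobp, which signals for TREM2, differed by 0.81 ± 0.37 and 0.72 ± 0.37.

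The smallest unadjusted p of this list was that of Ccl6, a chemokine gene next in kind to Ccl9, which held 1.36 to 3.06 CPM at 1 month and 3.24 to 28.9 CPM at 6 months in the upACSS2 mice (log2 fold change 2.06 ± 0.50, edgeR adjusted p = 0.117). Csf1, a growth factor for microglia, and Cd68, a lysosomal protein of phagocytes, rose in the vector mice by 0.78 ± 0.19 and 1.33 ± 0.35 (edgeR, adjusted p = 0.0194 and 0.0266). The upACSS2 differences were 0.44 ± 0.19 and 0.76 ± 0.35 (adjusted p = 0.318 and 0.344). For neither did the difference between the groups have an unadjusted p under 0.05 (0.219 and 0.255).

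Homeostatic microglia genes differed less. All 12 had a positive log2 fold change in the upACSS2 mice, with a median of 0.30, and 11 of 12 in the vector mice, with a median of 0.45 (0.24 without the 2 libraries with neocortex markers). Without replicate 3 at 6 months, the upACSS2 median was 0.12. Csf1r, the receptor for CSF1, rose in the vector mice (0.60 ± 0.17, edgeR adjusted p = 0.0431) and differed by 0.29 ± 0.17 in the upACSS2 mice (adjusted p = 0.477).

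Complement genes had a median of 0.55 in the upACSS2 mice and 0.53 in the vector mice, with 8 and 7 of 10 positive. The upACSS2 median was 0.36 without replicate 3 at 6 months. The vector median was 1.09 without replicate 5 at 1 month, 0.35 without replicate 3 at 6 months and 0.19 without the 2 libraries with neocortex markers. C1qb, a chain of the C1q complex that tags synapses, was 47.8, 64.1, 43.9, 45.8 and 94.8 CPM at 1 month and 92.9, 44.6, 156, 120 and 66.9 CPM at 6 months, with overlap between the times. C5ar1, a receptor for complement C5a, rose in the vector mice by 2.42 ± 0.56 (edgeR, adjusted p = 0.0163), from a mean of 0.233 to 1.23 CPM. In the upACSS2 mice it differed by 0.86 ± 0.54 (adjusted p = 0.493), from 0.424 to 0.817 CPM.

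Reactive astrocyte genes had a median of 0.47 in the upACSS2 mice and 0.89 in the vector mice. Without replicate 4 at 6 months the upACSS2 median was 0.23, and without replicate 3 at 6 months the vector median was 0.35. It was 0.26 without the 2 libraries with neocortex markers. Gfap, the intermediate filament of reactive astrocytes, was 871, 804, 875, 1022 and 1290 CPM at 1 month and 1472, 839, 2588, 2497 and 893 CPM at 6 months in the upACSS2 mice. Replicates 3 and 4 at 6 months were the highest, and replicates 2 and 5 lay within the range at 1 month. The log2 fold change was 0.77 ± 0.39, against 1.19 ± 0.40 in the vector mice (edgeR, adjusted p = 0.398 and 0.0697). Aspg, an asparaginase gene raised in reactive astrocytes, rose in the vector mice (1.69 ± 0.46, adjusted p = 0.0309) and differed by 1.15 ± 0.46 in the upACSS2 mice (adjusted p = 0.287).

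Astrocyte identity genes were near 0 in both, with medians of 0.02 and 0.16. Atp1b2, a sodium pump subunit of astrocytes, was the exception in the vector mice, where it rose from 336 to 538 CPM (0.68 ± 0.13, edgeR adjusted p = 0.00511). In the upACSS2 mice it was 371 and 405 CPM (0.12 ± 0.13), and the difference between the groups had an unadjusted p of 0.00597 and an adjusted p of 0.361.

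Myelin genes of oligodendrocytes also leaned higher. Of 14 myelin genes, 12 were positive in the upACSS2 mice, with a median of 0.39, and 6 had an unadjusted p under 0.05, all higher (7.48% of all genes). The vector median was 0.23, with 3 higher and 1 lower (13.3% and 11.9% of all genes), and it was -0.05 without the 2 libraries with neocortex markers. Trf, the transferrin gene, which in the brain is made mainly by oligodendrocytes, was 200, 212, 154, 218 and 194 CPM at 1 month and 510, 183, 529, 328 and 363 CPM at 6 months. Replicate 2 at 6 months was the 1 library within the range at 1 month. The log2 fold change was 0.97 ± 0.28 (edgeR, adjusted p = 0.185), and Trf rose in the vector mice by 1.05 ± 0.28 (adjusted p = 0.0282). Mag, a myelin adhesion protein, rose in the vector mice by 0.74 ± 0.21 (adjusted p = 0.0372) and differed by 0.56 ± 0.21 in the upACSS2 mice (adjusted p = 0.264). Fa2h, which makes the hydroxylated lipids of myelin, differed by 0.57 ± 0.18 and 0.51 ± 0.18, past the threshold in neither group (adjusted p = 0.209 and 0.0820). The 10 genes of oligodendrocyte precursors and newly formed oligodendrocytes had a median of 0.04 in the upACSS2 mice, with 5 positive. In the vector mice the median was 0.21, with 8 positive. Cspg4, the NG2 proteoglycan of oligodendrocyte precursors and the highest of them in both groups, rose in the vector mice by 0.83 ± 0.16 (adjusted p = 0.00498). In the upACSS2 mice it differed by 0.34 ± 0.16, and the difference between the groups had an unadjusted p of 0.0385.

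Lysosome and autophagy genes had medians of 0.23 and 0.19, with 14 of 16 members positive in the upACSS2 mice and 15 of 16 in the vector mice. At an unadjusted p under 0.05, 5 were higher in the upACSS2 mice (7.48% of all genes) and 6 in the vector mice (13.3%), where 3 passed (4.59%). Without the 2 libraries with neocortex markers the vector median was 0.04. Ctsa, the protease cathepsin A, was 67.3, 74.6, 60.1, 71.6 and 68.0 CPM at 1 month and 88.3, 74.6, 103, 100.2 and 86.1 CPM at 6 months, the times meeting at replicate 2 of both. Its log2 fold change was 0.41 ± 0.13 (edgeR, adjusted p = 0.205), and it rose by 0.67 ± 0.13 in the vector mice (adjusted p = 0.00511). Npc1, the lysosomal cholesterol exporter, held 45.6 to 56.3 CPM at 1 month and 57.5 to 73.0 CPM at 6 months, without overlap, yet it did not pass (0.33 ± 0.13, adjusted p = 0.279). It rose by 0.83 ± 0.13 in the vector mice (adjusted p = 0.00143), and the difference between the groups had an unadjusted p of 0.0116. Gusb, a glucuronidase, differed by 0.62 ± 0.22 and 0.67 ± 0.21 and passed in neither.

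**Figure D3:**
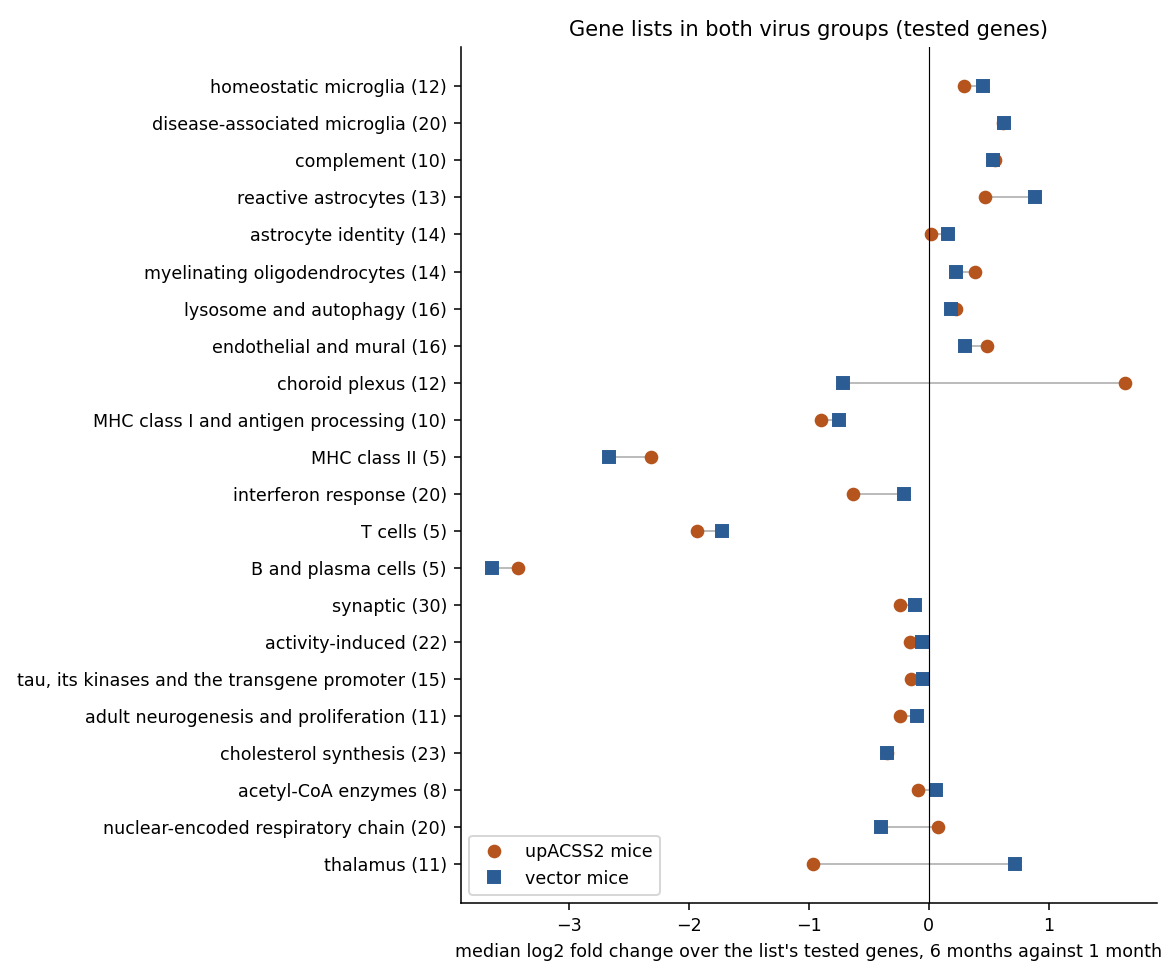
Median log2 fold change at 6 months against 1 month over the tested genes of each list shown, in the upACSS2 mice (circles) and the vector mice (squares), with the number of tested genes in brackets. Microglia, complement, lysosome and cholesterol lists have medians close together in the 2 groups. The choroid plexus, thalamus, respiratory chain and acetyl-CoA enzyme lists have medians of opposite sign, those of the last list both near 0. The thalamus medians turn sign without the 2 libraries with thalamus markers (0.18 and -0.07), and the vector medians of complement and choroid plexus genes move to 0.19 and 0.07 without the 2 with neocortex markers.

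MHC class II and B cell genes had lower medians at 6 months in both groups, with wide spread at 1 month, whereas the sign of the MHC class I and interferon medians in the vector mice rested on 1 library. The 5 MHC class II genes, which present peptides to T helper cells, had medians of -2.32 in the upACSS2 mice and -2.66 in the vector mice. No member passed in either. The median of their summed level over libraries differed little between the times. It was 21.9 and 16.5 CPM in the upACSS2 mice and 85.8 and 78.7 CPM in the vector mice. The highest library at 1 month held 322 CPM in the upACSS2 mice and 1303 CPM in the vector mice. Cd74, the invariant chain of MHC class II, was 11.2, 124, 3.76, 10.5 and 163 CPM at 1 month and 10.1, 15.3, 75.8, 8.90 and 2.16 CPM at 6 months in the upACSS2 mice. Replicates 2 and 5 at 1 month were far above the other 3, and replicate 3 was highest at 6 months. Ciita, the activator of these genes, was 0, 2.53, 0.274, 0.195 and 2.57 CPM at 1 month and at most 0.335 CPM at 6 months. Its log2 fold change was -3.35 ± 1.29 (edgeR, adjusted p = 0.272).

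Replicates 2 and 5 at 1 month were also the 2 libraries with the most Acss2, at 1190 and 1465 CPM. The score of MHC class II genes was 4.86 and 5.18 in them and 0.71 to 1.52 in the other 3. In the vector mice at 1 month, where Acss2 was at most 66.3 CPM, that score ranged from -0.64 to 7.14. H2-D1, an MHC class I heavy chain, was 186 and 221 CPM in replicates 2 and 5 and 23.5 to 41.7 CPM in the other 3. At 6 months it was 9.04 to 50.1 CPM. The 10 MHC class I genes had medians of -0.90 and -0.75, and the vector median was 0.30 without replicate 5 at 1 month. The median of their summed level over libraries was 222 and 214 CPM in the upACSS2 mice and 294 and 415 CPM in the vector mice.

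The B and plasma cell list had medians of -3.42 and -3.64. In the upACSS2 mice 4 of its 5 tested genes were lower at an unadjusted p under 0.05 (6.19% of all genes), and none passed the threshold. Jchain, which links immunoglobulin chains, was 5.13, 75.5, 1.92, 2.34 and 15.6 CPM at 1 month and 1.51, 1.05, 0.168, 2.26 and 0.206 CPM at 6 months. The groups overlapped by replicate 4 at 6 months and replicate 3 at 1 month. The log2 fold change was -4.11 ± 1.10 (edgeR, adjusted p = 0.153), and Jchain fell in the vector mice by 3.64 ± 1.08 on the log2 scale (adjusted p = 0.0460). Igkc, the kappa light chain, differed by -4.10 ± 1.24 and -3.39 ± 1.22 and passed in neither (adjusted p = 0.195 and 0.0892). Ighg2c, a heavy chain with close copies, fell in the vector mice (adjusted p = 0.0353). The summed level of the list ranged from 15.6 to 361 CPM at 1 month and from 14.3 to 52.6 CPM at 6 months in the upACSS2 mice. In the T cell list 5 of 11 genes were tested, and Cd3e, Cd3d and Cd4, defining markers of T cells, were among those too low to test.

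Interferon response genes had a median of -0.63 in the upACSS2 mice and -0.20 in the vector mice, and 0 of 20 had an unadjusted p under 0.05 in either. Without replicate 5 at 1 month of each group these were -0.09 and 0.72. The median score over libraries was 2.57 at 1 month and 2.59 at 6 months in the upACSS2 mice and 2.34 and 3.23 in the vector mice. Isg15, a ubiquitin-like protein made under interferon, was 0.754, 3.76, 3.49, 2.67 and 17 CPM at 1 month and 0.866 to 2.68 CPM at 6 months in the upACSS2 mice.

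Genes of excitatory synapses leaned lower at 6 months. Of 30 synaptic genes, 26 were negative in the upACSS2 mice, with a median of -0.24, and 10 had an unadjusted p under 0.05, all lower (6.19% of all genes). The vector median was -0.12, with 5 of 30 lower (11.9% of all genes). No member passed in either group. Shank3, a scaffold of the postsynaptic density, was 545, 448, 738, 492 and 425 CPM at 1 month and 344, 380, 262, 376 and 359 CPM at 6 months. The times did not overlap. Its log2 fold change was -0.62 ± 0.22 (edgeR, adjusted p = 0.233), against -0.41 ± 0.22 in the vector mice (adjusted p = 0.245). Shank2 and Shank1 differed by -0.44 ± 0.15 and -0.48 ± 0.18 (adjusted p = 0.233 and 0.270).

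Camk2a, the kinase of synaptic plasticity, was 5508 ± 1328 CPM at 1 month and 4030 ± 536 CPM at 6 months. Dlg4, which encodes PSD-95, differed by -0.34 ± 0.15, and Slc17a7, the vesicular glutamate transporter of excitatory neurons, by -0.36 ± 0.17, with adjusted p of 0.311 and 0.348 (edgeR). The synaptic score of replicate 3 at 6 months was 8.54, below the 8.97 to 9.06 of the other 4. That library was also the highest of its group for the disease-associated microglia score, at 5.81 against 4.41 to 5.00. Without it, the synaptic median was -0.16.

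Interneuron genes had a median log2 fold change of -0.01 in the upACSS2 mice, with 4 of 11 positive. The vector median was 0.09, with 10 of 11 positive. The lowest of the list in the upACSS2 mice was Erbb4, the neuregulin receptor of interneurons. It held 81.6 to 88.5 CPM at 1 month and 57.4 to 72.1 CPM at 6 months, without overlap. That is a log2 fold change of -0.31 ± 0.11 (edgeR, adjusted p = 0.262). In the vector mice it was 0.22 ± 0.11, and the difference between the groups had an unadjusted p of 0.00385. Reln, the secreted glycoprotein of Cajal-Retzius cells and interneurons, had the largest rise of the list in the vector mice, 0.72 ± 0.17 (adjusted p = 0.0161). It was 70.6 and 72.7 CPM in the upACSS2 mice, and the difference between the groups had an unadjusted p of 0.00980. The 22 activity-induced genes, sampled 30 min after recall, had a median of -0.16 in the upACSS2 mice and -0.05 in the vector mice, with 0 of 22 at an unadjusted p under 0.05 in either.

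Neurogenesis genes had a median of -0.24, with 2 of 11 lower at an unadjusted p under 0.05 (6.19% of all genes), against -0.10 and 0 of 11 in the vector mice. These were Dpysl3, a growth cone protein (66.8 and 49.8 CPM), and Igfbpl1, a gene of newborn neurons (2.42 and 1.20 CPM), and neither passed (edgeR, adjusted p = 0.220 and 0.274). The list of tau, its kinases and Prnp, which also holds Ppp2ca, Stub1 and Map2, had a median of -0.14. Of its members, 5 of 15 were lower at an unadjusted p under 0.05 (6.19% of all genes). The vector median was -0.05, with 4 of 15 lower (11.9%) and 1, Ppp2ca, called lower (2.87% of all genes were called lower). Gsk3b, a main tau kinase, was 250 ± 19.2 and 202 ± 32.6 CPM in the upACSS2 mice (-0.31 ± 0.11, adjusted p = 0.232), and its relative Gsk3a was 199 ± 13.6 and 168 ± 18.4 CPM (-0.25 ± 0.08, adjusted p = 0.221). Mapt, the mouse tau gene, was 520 and 480 CPM, and Prnp, whose promoter drives the transgene, was 1735 and 1896 CPM. Whether reads of the human transgene were counted under Mapt is not given in the sources used here. Ppp2ca, the catalytic subunit of the tau phosphatase PP2A, fell in the vector mice by 0.31 ± 0.07 on the log2 scale (adjusted p = 0.0141) and differed by -0.10 ± 0.07 in the upACSS2 mice.

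Cholesterol synthesis genes leaned lower at 6 months in both virus groups, with medians of -0.34 and -0.35. The pathway builds cholesterol from acetyl-CoA under the transcription factor SREBP2, and in the adult brain it is active mainly in glia. Of 23 tested members, 22 were negative in the upACSS2 mice, and 14 had an unadjusted p under 0.05, all lower (6.19% of all genes). Among vector mice 9 of 23 were lower at an unadjusted p under 0.05 (11.9% of all genes). No member passed after adjustment in the upACSS2 mice, and 4 fell in the vector mice (2.87% of all genes were called lower there): Mvk, Msmo1, Hmgcs1 and Idi1. Without the 2 libraries with neocortex markers the vector median was -0.22, and 1 member, Mvk, passed.

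Hmgcs1, which makes the pathway's first committed precursor, was 338, 478, 401, 282 and 454 CPM at 1 month and 328, 225, 224, 225 and 301 CPM at 6 months in the upACSS2 mice. The times overlapped by replicate 4 at 1 month and replicates 1 and 5 at 6 months. The log2 fold changes were -0.58 ± 0.18 and, in the vector mice, -0.64 ± 0.18 (edgeR, adjusted p = 0.207 and 0.0410). Msmo1, a sterol demethylating enzyme, differed by -0.49 ± 0.19 and -0.67 ± 0.19 (adjusted p = 0.276 and 0.0398), Idi1, an isomerase of the isoprenoid steps, by -0.47 ± 0.21 and -0.71 ± 0.21 (adjusted p = 0.327 and 0.0459), and Mvk, mevalonate kinase, by -0.25 ± 0.10 and -0.48 ± 0.10 (adjusted p = 0.294 and 0.0101). Mvd and Stard4, a decarboxylase of the same steps and a sterol carrier, differed by -0.57 ± 0.19 and -0.68 ± 0.24 in the upACSS2 mice and by -0.58 ± 0.19 and -0.66 ± 0.24 in the vector mice, past the threshold in neither.

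The promoters of the 4 genes that fell in the vector mice are shown because a letter pattern is shared by all of them. Sequences are RefSeq's (GRCm38.p6), read 5′ to 3′ on the gene's strand within the 250 bases before the start site. Capitals mark CCAAT boxes (CCAAT, or ATTGG on the other strand), and in Hmgcs1 also a sterol element (TCACNCCAC).
Hmgcs1 (chr13:119690101-119690330, plus strand): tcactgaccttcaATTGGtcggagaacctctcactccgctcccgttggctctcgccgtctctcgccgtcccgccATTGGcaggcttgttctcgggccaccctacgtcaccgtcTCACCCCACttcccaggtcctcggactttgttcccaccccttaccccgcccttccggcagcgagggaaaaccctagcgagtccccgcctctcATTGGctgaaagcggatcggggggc
Msmo1 (chr8:64733609-64733758, minus strand): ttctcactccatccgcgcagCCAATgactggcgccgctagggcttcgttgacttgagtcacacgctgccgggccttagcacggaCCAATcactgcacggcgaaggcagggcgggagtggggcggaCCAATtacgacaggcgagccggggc
Mvk (chr5:114444076-114444268, plus strand): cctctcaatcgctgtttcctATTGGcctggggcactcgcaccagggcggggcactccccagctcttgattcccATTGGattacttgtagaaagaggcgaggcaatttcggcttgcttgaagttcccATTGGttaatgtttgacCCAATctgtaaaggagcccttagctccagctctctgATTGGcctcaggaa
Idi1 (chr13:8885541-8885605, plus strand): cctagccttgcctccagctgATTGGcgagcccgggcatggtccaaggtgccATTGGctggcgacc

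A CCAAT box, the letters bound by NF-Y, was found on either strand in the 250 bases of all 16 cholesterol synthesis genes with a promoter in the table (100%; 7 of the 23 had no entry). It was found in 4678 of 11667 tested genes with a promoter (40.1%). The sterol element TCACNCCAC was found in 1 of the 16 (Hmgcs1, 6.25%) and in 143 of the 11667 (1.23%). These matches describe letters, not binding.

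No acetyl-CoA enzyme passed the threshold in the upACSS2 mice. Acaca and Fasn, which turn acetyl-CoA into fatty acids, were 55.1 and 41.5 CPM and 411 and 321 CPM at 1 and 6 months in the upACSS2 mice, with log2 fold changes of -0.41 ± 0.11 and -0.36 ± 0.15 (edgeR, adjusted p = 0.172 and 0.305). Acaca did not overlap between the times. The difference between the virus groups was -0.41 ± 0.16 for Acaca and -0.55 ± 0.21 for Fasn, with unadjusted p of 0.0191 and 0.0167 and adjusted p of 0.366 for both. Acss3, a mitochondrial short-chain acyl-CoA synthetase, differed by 0.84 ± 0.33 (adjusted p = 0.279).

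Nuclear-encoded respiratory chain genes were lower at 6 months in the vector mice, and in the upACSS2 mice their median was near 0. These genes encode subunits of complexes I to V in mitochondria, which neurons need for synaptic energy supply. The upACSS2 median log2 fold change was 0.07, 19 of 20 were positive and 0 of 20 had an unadjusted p under 0.05. The vector median was -0.40, 19 of 20 were negative and 9 fell (adjusted p under 0.05; 2.87% of all genes were called lower). Without the 2 libraries with thalamus markers 1 of them passed and without the 2 with neocortex markers 2, at vector medians of -0.36 and -0.37. The difference between the groups had a median of 0.49, and 17 of 20 had an unadjusted p under 0.05, all positive (6.73% of all genes). None passed after adjustment over all genes (lowest adjusted p of any gene 0.361).

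Sdhb, the iron-sulfur subunit of complex II, was 116, 115, 137, 114 and 126 CPM at 1 month and 120, 111, 163, 124 and 109 CPM at 6 months in the upACSS2 mice. Vector libraries held 143, 150, 122, 128 and 131 CPM at 1 month and 100.2, 99.5, 102, 95.8 and 106 CPM at 6 months. The vector libraries did not overlap between the times, and the upACSS2 libraries did. The log2 fold changes were 0.05 ± 0.09 and -0.42 ± 0.09, the latter past the threshold (edgeR, adjusted p = 0.0129), and the difference was 0.47 ± 0.13 with an unadjusted p of 0.00206.

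Cox4i1, a subunit of complex IV, fell in the vector mice from 521 to 364 CPM (-0.51 ± 0.12, edgeR adjusted p = 0.0141) and was 489 and 455 CPM in the upACSS2 mice (-0.10 ± 0.12). Ndufb8, of complex I, fell from 66.5 to 49.4 CPM (-0.43 ± 0.12, adjusted p = 0.0338) and was 60.0 and 65.4 CPM in the upACSS2 mice. Uqcrb, of complex III, fell from 50.7 to 38.6 CPM (-0.39 ± 0.11, adjusted p = 0.0423) and was 45.9 and 50.7 CPM in the upACSS2 mice. The test of the difference gave unadjusted p of 0.0212, 0.00370 and 0.00376 for these 3. Ndufs4, Ndufv2 and Cox6c fell in the vector mice as well, by 0.43, 0.39 and 0.57 on the log2 scale (adjusted p = 0.0181, 0.0434 and 0.0362).

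Replicate 3 at 6 months weighs on the upACSS2 side of this comparison. Its respiratory chain score was 6.95, against 6.23 to 6.51 in the other 4 upACSS2 libraries at 6 months and 6.24 to 6.57 at 1 month. Without it, the upACSS2 median was -0.06 and the median of the difference between the groups 0.33. Without the 2 libraries with thalamus markers the latter was 0.40, and over all fits with 1 library left out it lay between 0.33 and 0.55. The mitochondrial ribosomal RNA mt-Rnr2 moved with this list: it fell in the vector mice by 0.96 ± 0.23 on the log2 scale (edgeR, adjusted p = 0.0191), and in the upACSS2 mice it was highest in replicate 3 of both times, at 12730 and 11540 CPM, against 5397 to 8310 CPM in the other 8. The nuclear RNA Malat1 went the other way, rising in the vector mice by 1.08 ± 0.30 (adjusted p = 0.0378) and differing by 0.72 ± 0.30 in the upACSS2 mice (adjusted p = 0.311). The part of these in the result was not tested.

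In the promoters of the 14 respiratory chain genes with an entry, the letters GCGCANGCG, a core of the NRF-1 site, were found in 1 (7.14%, against 11.6% of all tested genes with a promoter). The ETS core CCGGAAG was found in 2 (14.3%, against 14%).

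**Figure D4:**
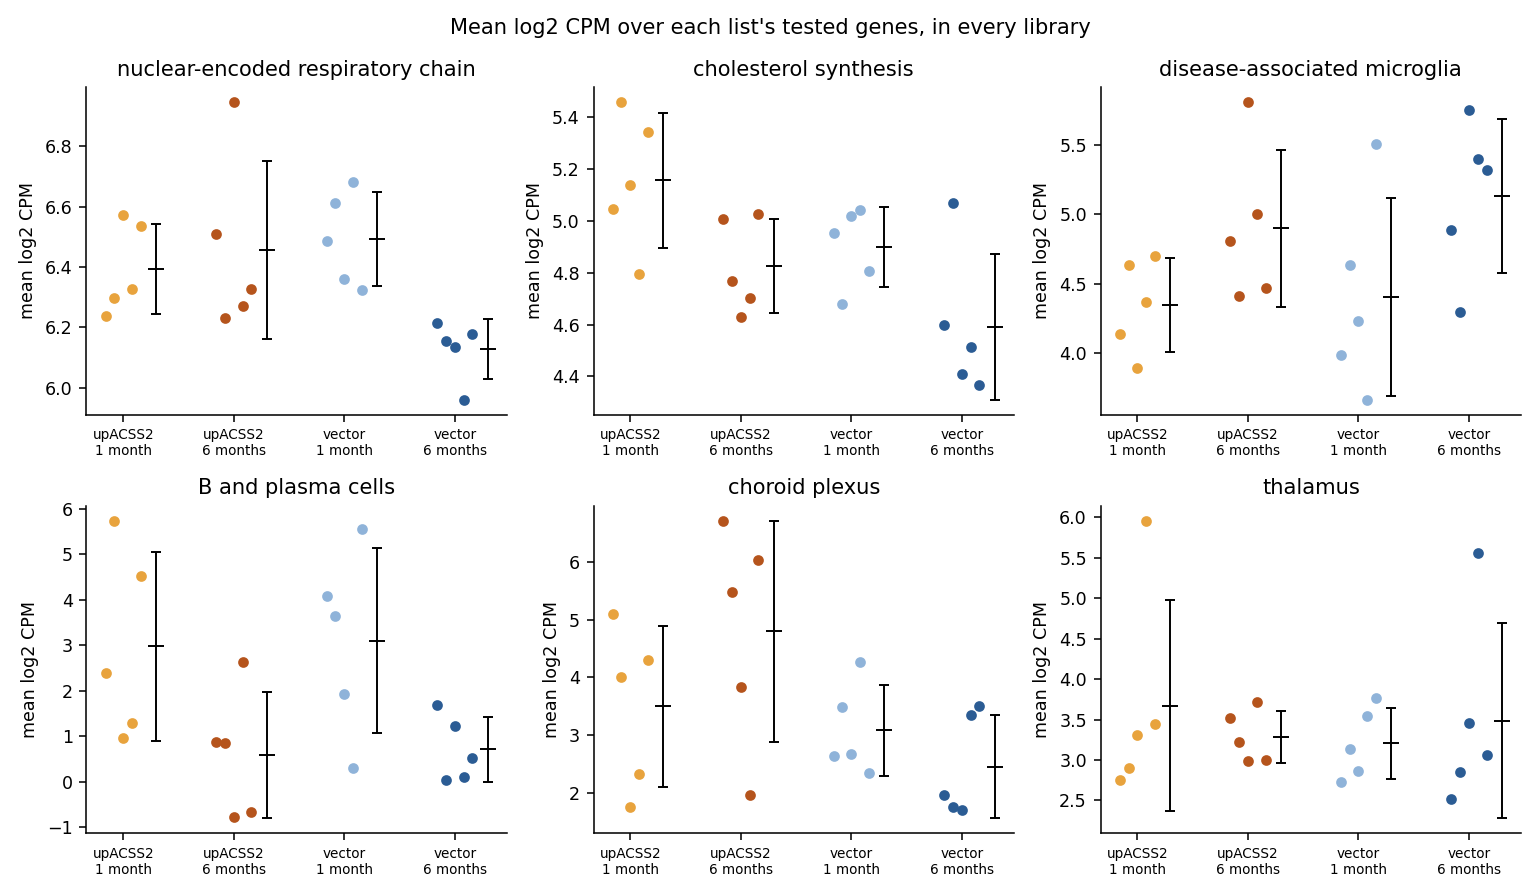
Mean log2 CPM over each list's tested genes in every library (vertical axes, each with its own range; horizontal axis, virus and months after injection); points are libraries and bars the mean ± SD of 5 libraries. The respiratory chain score is lower in all 5 vector libraries at 6 months than in all 5 at 1 month and overlaps in the upACSS2 mice, where replicate 3 at 6 months is highest at 6.95. The thalamus panel shows the 2 libraries that stand apart, at 5.96 and 5.56.

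Blood vessel genes were higher at 6 months in the upACSS2 mice as a list. All 16 endothelial and mural genes were positive, with a median of 0.49, and 8 had an unadjusted p under 0.05 (7.48% of all genes were higher), among them Rgs5 and Slco1a4, which passed (0.0379% of all genes). Among vector mice 14 of 16 were positive with a median of 0.31, 3 were higher and 1 lower at an unadjusted p under 0.05 (13.3% and 11.9% of all genes), and 0 passed. Ly6c1, a surface protein of brain endothelium, was 4.83, 5.68, 3.83, 4.49 and 5.68 CPM at 1 month and 6.66, 10.6, 12.3, 11.2 and 11.7 CPM at 6 months, without overlap (1.10 ± 0.27, edgeR adjusted p = 0.117). Slc2a1, the glucose transporter of the blood-brain barrier, did not overlap either, at 32.4 to 40.3 and 43.4 to 60.5 CPM (0.44 ± 0.12, adjusted p = 0.153). Vtn, vitronectin, a pericyte gene, differed by 0.57 ± 0.20 and by 0.58 ± 0.20 in the vector mice. The median of the difference between the groups over the list was 0.22, and 3 of 16 had an unadjusted p under 0.05, all positive (6.73% of all genes).

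The choroid plexus is the tissue in the ventricles that makes cerebrospinal fluid. Its markers leaned higher at 6 months in the upACSS2 mice and lower in the vector mice, where the vessel genes' median was 0.31. Their median was 1.64 in the upACSS2 mice, with 12 of 12 positive and 8 higher at an unadjusted p under 0.05 (7.48% of all genes), and -0.72 in the vector mice. The latter was 0.07 without the 2 libraries with neocortex markers. Ttr, transthyretin, the most abundant of them, was 1234, 703, 48.2, 75.1 and 814 CPM at 1 month and 5628, 1986, 561, 77.8 and 3161 CPM at 6 months in the upACSS2 mice. The vector libraries held 44.7 to 786 CPM. The summed level of the list was 237 to 2318 CPM at 1 month and 330 to 8505 CPM at 6 months in the upACSS2 mice, and 303 to 1553 CPM over the vector mice. Prlr and Enpp2, also high in this tissue, differed by 1.86 ± 0.60 and 1.27 ± 0.54 (edgeR, adjusted p = 0.210 and 0.311).

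Replicate 4 at 6 months held a choroid plexus score of 1.96, the lowest of its group. The part of choroid plexus tissue in the vessel genes' difference was not tested. With the choroid plexus score as a covariate, chosen after seeing the data, edgeR called 0 genes in the upACSS2 mice, and the log2 fold changes were 0.77 for Rgs5 and 0.75 for Slco1a4 (adjusted p = 0.138 for both; without a covariate both adjusted p were under 0.05, and over all alternatives they ranged from 0.0001996 to 0.214 and from 0.0001183 to 0.214). Other tissue lists moved less evenly. Thalamus genes had medians of -0.96 and 0.72 in the upACSS2 and the vector mice, and 0.18 and -0.07 without the 2 libraries named above. Erythrocyte genes had medians of 0.02 and -0.25, and meningeal fibroblast genes had 4 of 7 positive in the upACSS2 mice.

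Plin4, a lipid droplet protein, and Cdkn1a, the cell cycle inhibitor p21, both of the glucocorticoid-responsive list, rose in the vector mice by 1.63 ± 0.39 and 1.31 ± 0.35 (edgeR, adjusted p = 0.0189 and 0.0282). In the upACSS2 mice Plin4 was 0.699 to 2.26 CPM at 1 month and 1.58 to 4.86 CPM at 6 months (1.18 ± 0.40, adjusted p = 0.225), and Cdkn1a was 2.94 to 6.38 and 5.47 to 13.2 CPM (0.78 ± 0.36, adjusted p = 0.345). The other 6 genes of that list passed in neither group (4.59% of all genes were called higher in the vector mice). At an unadjusted p under 0.05, 2 of 8 were higher in the upACSS2 mice (7.48% of all genes) and 3 of 8 in the vector mice (13.3%). The median over all 8 was 0.01 in the upACSS2 mice and 0.14 in the vector mice.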

How the data were processed

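RNA was sequenced from the hippocampus, and the authors deposited raw counts per gene, which are the only unit used. STAR, featureCounts, HTSeq, DESeq2 and the mm10 build are named in the submitters' processing notes; their roles, versions, the annotation and the strand setting are not given in the sources used here. Columns were matched to libraries by title, and 0 columns of the 4 groups were left unused. From 55367 genes, 15850 passed edgeR's filter on low counts by group. The 4 groups were fitted together with edgeR 4.0.16 in R 4.3.3 (TMM scaling, quasi-likelihood test, Benjamini-Hochberg adjustment over all tested genes, threshold 0.05). Contrasts were 6 months against 1 month in each virus group and the difference between them. The fit was tested on simulated data. Acss2 was also compared by an exact permutation test. DESeq2 1.42.0, RLE scaling, no filter, a fit of 2 groups, a block for replicate number and leaving out each library were tried.

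The members and gene lists were chosen with earlier results of these data known. Named genes were Acss2, called genes whose log2 CPM averaged 1 or more and whose times did not overlap, the 5 with the smallest unadjusted p for the difference between the virus groups, and members of the lists. Coordinates are from the GENCODE annotation of GRCm38, the assembly called mm10.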

Additional observations from a re-analysis of the deposited data

Results flagged for a closer look

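Of 112 sets of 5 libraries checked for 1 library far from the other 4, 6 stood out, where chance alone would give about 5.6 (1 in 20). The thalamus score of upACSS2 replicate 4 at 1 month was 5.956, against 2.752 to 3.439 in the others. The synaptic score of upACSS2 replicate 3 at 6 months was 8.544, against 8.97 to 9.061. Acss2 in vector replicate 1 at 1 month was 66.34 CPM, against 51.5 to 53.14 CPM. Gm38190 in vector replicate 2 at 6 months was 2.733 CPM, against 1.929 to 2.115 CPM. The neocortex score was 5.791 in vector replicate 4 at 1 month, against 4.73 to 4.883, and 5.707 in vector replicate 3 at 6 months, against 4.609 to 4.669.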

How the results depend on the processing

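The count of genes called between the times in the upACSS2 mice (7) was 175 with DESeq2, 4 without a filter on low counts and 1 with only the groups compared in the fit. It was 0 without the 2 libraries with thalamus markers and 0 with the choroid plexus score as covariate, and it was 12 without the 2 vector libraries with neocortex markers, all 3 settings chosen after seeing the data. The count in the vector mice (1182) was 1869 with DESeq2, 656 without the filter, 371 without the 2 libraries with thalamus markers and 614 without the 2 with neocortex markers. The difference between the virus groups gave 3 genes with DESeq2. Leaving out 1 library at a time gave 0 to 16 genes in the upACSS2 mice and 374 (without vector replicate 1 at 1 month) to 1376 in the vector mice. The cause of these shifts was not tested.

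With the replicate block, the counts were 0 in the upACSS2 mice, 782 in the vector mice and 0 for the difference between them, and 0 in either virus group when the block was fitted without the other 2 groups. The numbers do not pair the libraries: correlations of same-numbered libraries lay between -0.181 and 0.155 in the upACSS2 mice and between -0.305 and 0.068 in the vector mice.

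With 1 library left out, the Acss2 difference lay between -670 and -319 CPM in the upACSS2 mice and between -8.86 and -4.10 CPM in the vector mice. Signs changed for some named genes. In the upACSS2 mice the leave-one-out log2 fold changes were -0.0491 to 0.1777 for Ndufb8, -0.2161 to 0.0102 for Cox4i1 and -0.0612 to 0.0938 for Sdhb. In the vector mice they were -0.0197 to 0.2256 for Rgs5 and -0.1554 to 0.2731 for Acss3, and Acss3 was -0.1555 without the 2 libraries with thalamus markers. With the choroid plexus score as covariate, the vector value was 0.0459 for Acss2. For Ttr the vector value was 0.0163 and the difference between the virus groups -0.0091. Ttr is a member of that score, so this setting gives no check of Ttr. Without the 2 libraries with neocortex markers the vector value was 0.1148 for Ttr. List medians that changed sign under a setting, with values in the report, included those of MHC class I, interferon, thalamus, choroid plexus, myelin and respiratory chain genes.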
